A study of Mus musculus with 6 samples.

Results

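A set of 10 genes of heparan sulfate synthesis and breakdown was followed in mouse leukaemia cells, chosen by symbol from the 33924 gene rows of the deposited count table: the heparanases Hpse and Hpse2, the extracellular sulfatase Sulf2, the chain polymerases Ext1 and Ext2, and the modifying enzymes Ndst1, Ndst2, Glce, Hs2st1 and Hs6st1. All 10 were in the table. They were chosen with results of the same comparison known, among them the near absence of Hpse2 from one group, so their values are a description and carry no test. RNA had been sequenced from 6 libraries of acute myeloid leukaemia cells transduced by retrovirus with MLL-AF9, a fusion oncogene, 3 derived from LSK cells (LSK 44, LSK 45 and LSK 46) and 3 from GMP (GMP 5, GMP 11 and GMP 19). LSK cells are a marrow population rich in stem cells, and GMP are granulocyte-macrophage progenitors. The labels call the libraries purified LSK or GMP cells. The growth protocol describes cultured leukaemia cells derived from them, and these were taken as what was sequenced. In both groups the immortalised, GFP-positive cells had been transplanted with wild-type support marrow into C57BL/6 mice irradiated with 950 cGy, and leukaemia cells taken from the marrow of moribund mice were kept in culture with SCF at 20 ng/mL, IL-3 at 10 ng/mL and IL-6 at 10 ng/mL. The labels give no age and do not say whether the leukaemia cells were sorted again after harvest, when marrow of the support graft and the host would also be present, or whether each library had its own mouse or transduction. P-values therefore measure only how far these libraries differ, and some of that may be technical.

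Heparan sulfate is a long sulfated sugar chain carried by core proteins on the cell surface, in the matrix and in granules, where it binds growth factors, chemokines and proteases. The chain is started on a short linkage region, extended by the EXT1 and EXT2 complex, and then patterned by N-deacetylase and N-sulfotransferase enzymes, an epimerase and further sulfotransferases. Heparanase, the HPSE protein, cuts the chain and is known from leukocytes, platelets and mast cells. HPSE2 binds heparan sulfate but lacks this cutting activity, and it is known as an inhibitor of heparanase.

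Total counts ran from 16640929 (LSK 44) to 33885428 (GMP 11), so 3 counts, the limit that 0 counts allow, were 0.180 CPM in the shallowest library and 0.0885 CPM in the deepest. CPM are counts scaled to 1e6 per library, adjusted between libraries by the TMM method, and are given as mean ± SD (n = 3 libraries per group). Of the labelled populations' surface markers, Kit was at 183 to 207 CPM in LSK-derived and 96.3 to 143 CPM in GMP-derived libraries, while Ly6a, which encodes Sca-1, was at most 2.94 and 0.352 CPM. Fcgr3, a gene for the CD16/32 antigen of GMP, was at 22.0 to 49.4 and 150 to 171 CPM, and the pan-leukocyte gene Ptprc at 223 to 276 and 346 to 410 CPM. Cd34 was at 169 to 201 CPM in LSK-derived and 66.9 to 272 CPM in GMP-derived libraries, groups that overlapped. One library, GMP 5, stood apart in myeloid genes: it had 13.8 CPM of the granule gene Mpo, against 316 and 500.3 CPM in GMP 11 and GMP 19, and 88.5 CPM of the mast cell protease gene Cpa3, against at most 0.968 CPM in the others of its group. In this bulk RNA, fewer cells of a type and less RNA per cell cannot be told apart.

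The heparanase genes are shown first by the sequence before their start sites, since Hpse2 showed the largest difference of the 10 and Hpse is its relative. The sequences are RefSeq's on GRCm38.p6, a later build than the mm9 of the counts. A promoter entry matched 8 of the 10 genes (all but Ext1 and Ndst1). The Hpse sequence is the minus strand of chr5:100719717-100719966, and the Hpse2 sequence is the minus strand of chr19:43388477-43388605, cut short so that no transcribed base of any annotated start is shown. Capitals mark matches to the motifs searched.
Hpse: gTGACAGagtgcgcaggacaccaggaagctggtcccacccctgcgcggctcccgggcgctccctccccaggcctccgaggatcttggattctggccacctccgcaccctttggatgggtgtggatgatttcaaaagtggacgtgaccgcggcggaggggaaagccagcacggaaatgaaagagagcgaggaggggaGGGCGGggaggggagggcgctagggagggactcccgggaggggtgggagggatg
Hpse2: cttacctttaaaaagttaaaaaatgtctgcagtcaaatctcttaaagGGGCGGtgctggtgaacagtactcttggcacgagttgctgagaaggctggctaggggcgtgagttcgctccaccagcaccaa
Motifs were searched on both strands in the 250 bases before the annotated start. For Hpse2, 129 of these bases are shown. The search and the base composition given below also cover the rest, which lies after another annotated start. The GC box GGGCGG matched 1 time in each gene and was present in 32.7% of all 32851 RefSeq windows of this length. The MEIS core TGACAG matched 1 time in Hpse and not in Hpse2 (15.9% of windows). The ETS core CCGGAAG (6.91%), the E-box CACGTG (6.02%), the TATA box TATAAA (12.4%), the inverted CCAAT box ATTGG (33.8%) and the PU.1 core GAGGAAGT (2.44%) matched neither, and no matches overlapped. The Hpse window was 66.8% G and C with 16 CpG, the Hpse2 window 50.0% with 9, and the medians over all windows were 52.4% and 6. The matches describe letters only.

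Hpse2 was present in every GMP-derived library and almost absent from the LSK-derived ones. It had 0, 1 and 0 counts in libraries LSK 44, 45 and 46, against 482, 581 and 849 counts in libraries GMP 5, 11 and 19, which is 19.8, 17.2 and 24.9 CPM. The GMP-derived libraries lay close together and far from the others, with a highest to lowest ratio of 1.44. Their mean of 20.6 ± 3.90 CPM was 1364 times the pooled LSK-derived level of 0.0151 CPM, with an exact 95% counting interval of 245 to 53875 that covers only the counting error of the single LSK-derived count. The protein-coding neighbours of Hpse2 in RefSeq order were Hps1, a lysosome biogenesis gene, and Cnnm1. Hps1 did not share this pattern, at 70.3 to 82.0 CPM in LSK-derived and 59.2 to 78.6 CPM in GMP-derived libraries, groups that overlapped. Cnnm1 had 1 count over the 6 libraries together, in GMP 11, which is too few to show any pattern. These neighbours were chosen after values were seen. Of 11 markers of stroma and endothelium, Col1a2, Dcn and Lum had 0 counts in every library, 3 reached the level needed for a test, and the summed level was 190 to 332 CPM in LSK-derived and 147 to 227 CPM in GMP-derived libraries, most of it Pecam1. Pdgfrb, a mesenchymal receptor gene of that list, was at 36.4, 14.0 and 30.3 CPM in libraries GMP 5, 11 and 19 and at most 4.87 CPM in an LSK-derived library, while Lepr, another mesenchymal gene of the list, was at 0.423 to 1.41 CPM in LSK-derived and 0.0410 to 0.352 CPM in GMP-derived libraries. Col1a1 had 0, 1 and 1 counts in libraries LSK 44, 45 and 46 and 1, 8 and 50 counts in libraries GMP 5, 11 and 19. Cxcl12 had 0 counts in the LSK-derived libraries and 2, 3 and 3 counts in the GMP-derived ones. Both were too low for a test. For Col1a1, Col3a1, Cdh5, Kdr and Pecam1 the groups overlapped. The genes named here were picked with their values known. The part of these marker genes in the Hpse2 difference was not tested.

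**Figure D1:**
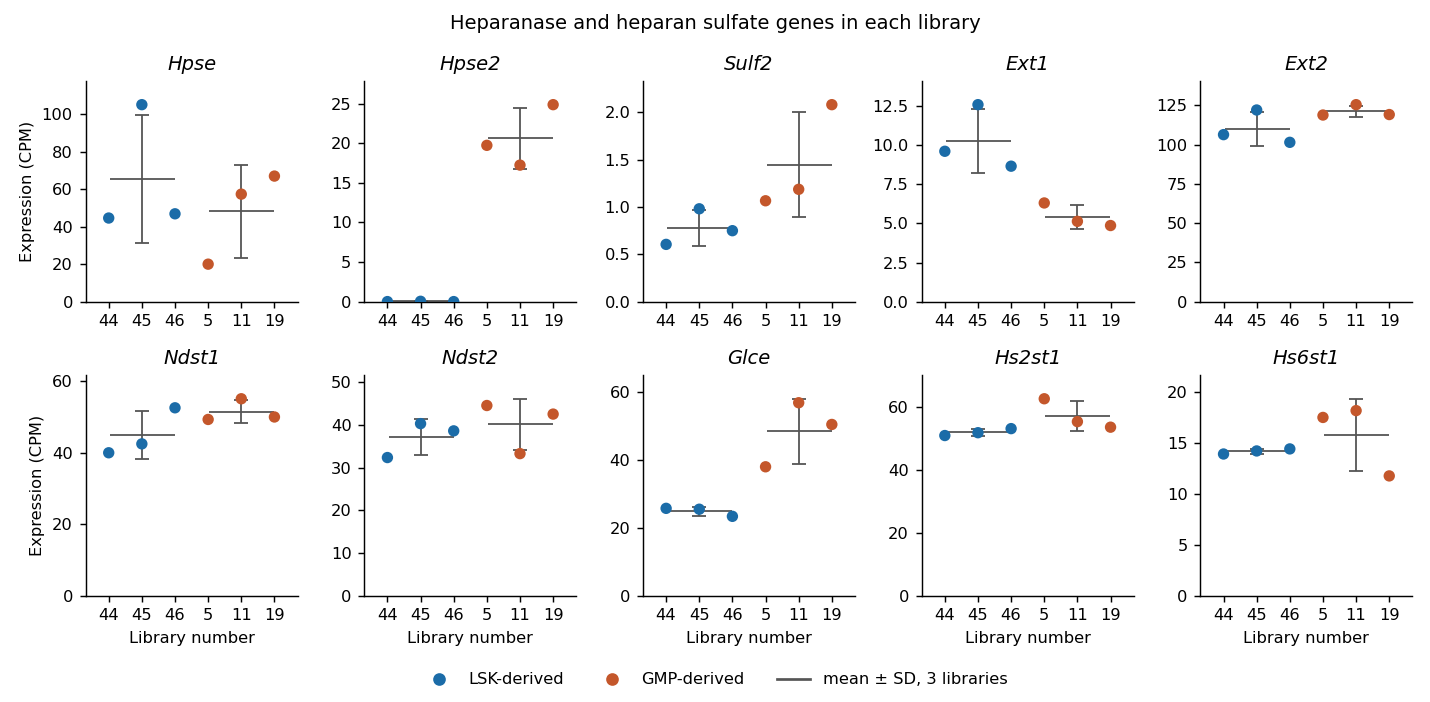
Expression of the 10 genes (CPM, vertical axes from 0) in each library, with LSK-derived libraries in blue, GMP-derived ones in orange, and grey lines for the mean ± SD of 3 libraries. Hpse2 lies at 0 in the LSK-derived libraries, Ext1 is higher in all of them, Glce is lower in all of them, and Hpse varies most between libraries of one group.

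Hpse, the active heparanase, differed more between libraries of a group than between the groups. It was at 44.6, 105 and 46.9 CPM in libraries LSK 44, 45 and 46 and at 20.0, 57.4 and 67.1 CPM in libraries GMP 5, 11 and 19. The highest and the lowest library belonged to different groups, and the groups overlapped. Within a group the highest library was 2.36 times the lowest in LSK-derived and 3.35 times in GMP-derived leukaemias. This was the widest spread of the 10 genes in each group, with no ratio for Hpse2 in the LSK-derived group, where its lowest value was 0. The log2 fold change of Hpse (LSK-derived minus GMP-derived, throughout) was 0.44 ± 0.52, where the error is an approximate SE derived from the fit. It was -0.07 without LSK 45 and 0.07 without GMP 5.

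Monocyte genes also varied between libraries of a group. The summed level of 8 monocyte and macrophage markers (Csf1r, Ly6c2, Ccr2, Cx3cr1, F13a1, Emr1, Cd68 and Mrc1, all detected and all tested) was 1226, 2170 and 888 CPM in libraries LSK 44, 45 and 46 and 601, 1783 and 1663 CPM in libraries GMP 5, 11 and 19. LSK 45 had the highest sum and the highest Hpse, and GMP 5 had the lowest of both, but the sum put LSK 44 above LSK 46 and GMP 11 above GMP 19, and Hpse did not. Of the 8 markers, Cx3cr1 and Mrc1 were higher in LSK-derived libraries in the edgeR test, where 11.8% of all tested genes were higher, and none was lower, where 13.9% were. F13a1, the coagulation factor XIII gene, was at 386 CPM in LSK 45 against 83.9 and 81.7 CPM in LSK 44 and LSK 46, and at 39.9 CPM in GMP 5 against 417 and 295 CPM in GMP 11 and GMP 19. Other members were ordered differently: the macrophage gene Emr1 was at 159 CPM in GMP 5 against 30.0 and 79.1 CPM in GMP 11 and GMP 19, and Cd68 was highest in LSK 46, at 69.6 CPM against 62.4 CPM in LSK 45. These 3 genes were picked with their values known. Markers of megakaryocytes and platelets, cells known to carry heparanase, were ordered otherwise. Their 8 genes, of which 4 were tested and none was at 0 throughout, summed to 16.2 to 98.3 CPM in LSK-derived and 2.88 to 12.8 CPM in GMP-derived libraries, highest in LSK 46, and 1 was higher in the LSK-derived group by the edgeR test. Of 10 mast cell and basophil markers, Mcpt4 and Tpsab1 were at 0 in every library, and the sum was 109 to 155 CPM in LSK-derived and 87.9 to 338 CPM in GMP-derived libraries, highest in GMP 5, with 1 of 5 tested higher and 1 lower. Of 9 neutrophil markers, 6 were tested and none was at 0 throughout, and the sum was 48.0 to 179 and 18.3 to 582 CPM, highest in GMP 19, with 2 lower. Cx3cr1, Mrc1 and Vwf, the megakaryocyte gene called higher, passed the filter on low counts only through the LSK-derived libraries. S100a9, 1 of the 2 neutrophil genes called lower, passed it only through the GMP-derived ones. Nothing is read from these calls. The part of these cell types in the level of Hpse was not tested.

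**Figure D2:**
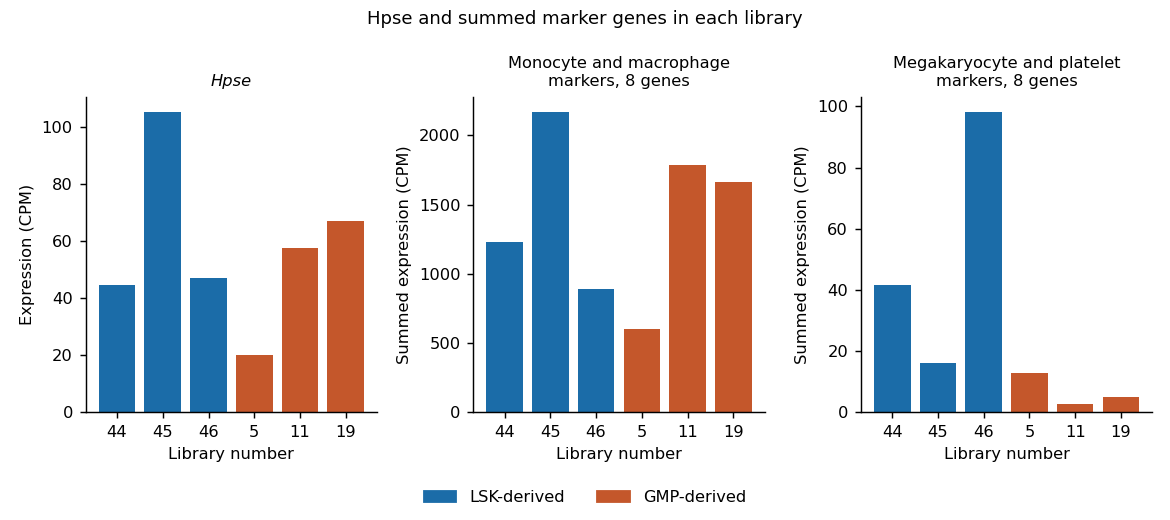
Hpse (left, CPM) beside the summed CPM of the monocyte and macrophage markers (middle) and of the megakaryocyte and platelet markers (right), with 1 bar per library. Hpse and the monocyte sum are both highest in LSK 45 and lowest in GMP 5, while the megakaryocyte sum is highest in LSK 46.

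Sulf2, which encodes a sulfatase that trims sulfate from finished chains outside the cell, was close to the lower limit of measurement. It was at 0.605, 0.981 and 0.750 CPM in libraries LSK 44, 45 and 46 and at 1.07, 1.19 and 2.08 CPM in libraries GMP 5, 11 and 19. The groups did not overlap, but LSK 45 and GMP 5 were nearly level, on 25 and 26 counts. The log2 fold change was -0.88 ± 0.36, and -0.52 without GMP 19. Sulf2 exons overlap 154 bases of Ncoa3 on the opposite strand in GENCODE M21. Its count may be affected there if counting ignored strand, in a direction that depends on the counting mode, which is not known. Its relative Sulf1 had 0 counts except in LSK 45, at 0.0785 CPM.

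The polymerase genes differed from each other. Ext1 was at 9.62, 12.6 and 8.66 CPM in libraries LSK 44, 45 and 46 and at 6.31, 5.14 and 4.87 CPM in libraries GMP 5, 11 and 19. Each LSK-derived library lay above each GMP-derived one, with means of 10.3 ± 2.05 against 5.44 ± 0.768 CPM and a log2 fold change of 0.92 ± 0.20. Ext2, its partner in the polymerase complex, was at 106, 122 and 102 CPM in LSK-derived and 119, 125 and 119 CPM in GMP-derived libraries, groups that overlapped (log2 fold change -0.14 ± 0.08). Per kilobase of exon, the Ext1 level was 4.30%, 4.91% and 4.06% of the Ext2 level in libraries LSK 44, 45 and 46, and 2.53%, 1.95% and 1.94% in libraries GMP 5, 11 and 19. This ratio is taken within a library and does not depend on the scaling between libraries.

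Glce, which encodes the epimerase that turns glucuronic acid into iduronic acid and so makes the chain more flexible, was lower in the LSK-derived libraries. It was at 25.8, 25.5 and 23.4 CPM in libraries LSK 44, 45 and 46 and at 38.0, 56.9 and 50.5 CPM in libraries GMP 5, 11 and 19. The LSK-derived libraries lay within 1.10 times of each other and below all GMP-derived ones, with a log2 fold change of -0.96 ± 0.15. Hs2st1, the sulfotransferase that acts on the iduronic acid, was at 51.0, 51.9 and 53.2 CPM in LSK-derived and 62.7, 55.4 and 53.7 CPM in GMP-derived libraries. Its groups did not overlap, but LSK 46 and GMP 19 differed by less than 1 CPM and the log2 fold change was -0.14 ± 0.08. Per kilobase, the Glce level was 56.1% to 64.4% of the Hs2st1 level in LSK-derived and 77.2% to 131% in GMP-derived libraries.

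The remaining modifying enzymes showed small differences. Ndst1 and Ndst2 encode enzymes that replace acetyl by sulfate on glucosamine, the first patterning step, and Ndst2 is known for its part in mast cell heparin. Ndst1 was at 40.0, 42.5 and 52.6 CPM in LSK-derived and 49.3, 55.1 and 50.0 CPM in the GMP-derived ones (log2 fold change -0.19 ± 0.12). Ndst2 was at 32.4, 40.3 and 38.6 CPM in LSK-derived and 44.5, 33.3 and 42.5 CPM in the GMP-derived ones (log2 fold change -0.11 ± 0.14). Hs6st1, which adds sulfate to glucosamine, was at 13.9, 14.2 and 14.4 CPM in LSK-derived and 17.5, 18.2 and 11.8 CPM in the GMP-derived ones (log2 fold change -0.16 ± 0.18). The groups overlapped for all of these genes. The relatives Ndst3, Ndst4, Hs6st2 and Hs6st3 had at most 1 count in any library, so of these enzyme families Ndst1, Ndst2 and Hs6st1 were the members with more than 1 count in a library.

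Levels can be compared between genes only per length, here as CPM per kilobase of exon. Ext2 was the highest of the 10 in both groups, at 30.2 ± 2.96 in LSK-derived and 33.3 ± 1.02 CPM per kilobase in GMP-derived libraries. In LSK-derived libraries Hpse, Ndst2, Hs2st1, Ndst1, Glce, Hs6st1, Ext1, Sulf2 and Hpse2 followed, and library ranges overlapped between neighbours for Ext2 and Hpse, Ndst2 and Hs2st1, and Ndst1 and Glce. In GMP-derived libraries the order was Ext2, Hpse, Glce, Ndst2, Hs2st1, Ndst1, Hpse2, Hs6st1, Ext1 and Sulf2, with overlap from Hpse through Hs2st1 and between Hpse2 and Hs6st1. Glce held place 6 in the LSK-derived and place 3 in the GMP-derived order, and Hpse2 places 10 and 7. Hpse2 per kilobase was 82.1%, 25.0% and 30.8% of Hpse in libraries GMP 5, 11 and 19, and at most 0.0310% in an LSK-derived library. The high share in GMP 5 came with the lowest Hpse of any library.

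**Figure D3:**
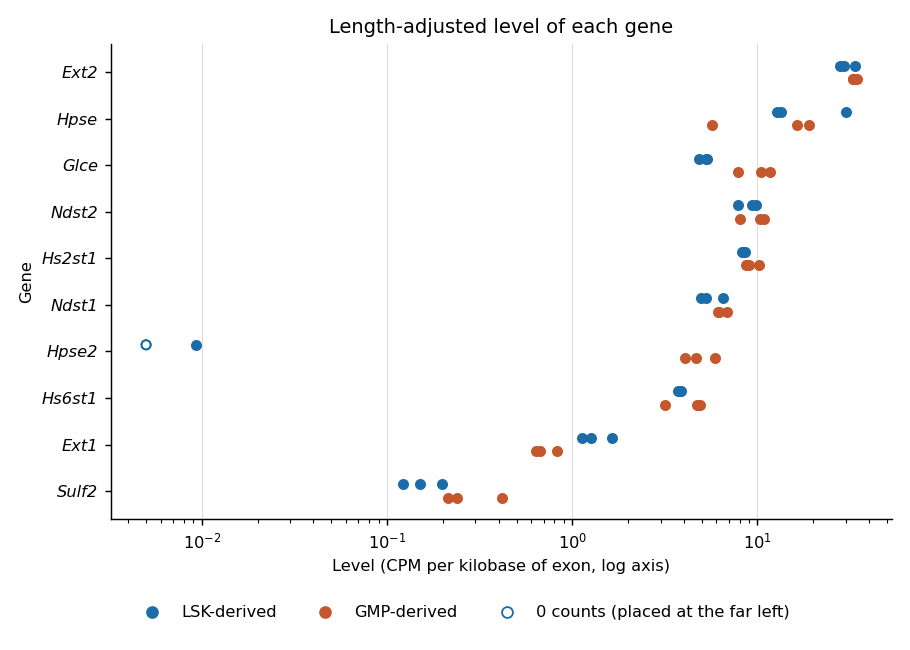
Level of each gene per kilobase of exon (CPM per kilobase, log axis), with 1 point per library. Ext2 is the highest gene in both groups, Ext1 lies more than 10-fold below it, and Hpse2 is within the range of the other genes only in the GMP-derived libraries.

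All 10 genes passed the filter on low counts, Hpse2 only through the GMP-derived libraries. In the edgeR fit over all 13406 tested genes, 3 of them had an adjusted p below 0.05 (Ext1 higher in LSK-derived libraries, Glce and Hpse2 lower), where 25.7% of all tested genes did. Groups did not overlap for 5 of the 10, which was so for 45.4% of tested genes: Ext1 was higher (22.5% of tested genes) and Glce, Hpse2, Hs2st1 and Sulf2 were lower (22.8%). Since the genes were chosen with this contrast known, nothing is read from these counts.

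The rest of the pathway was taken from 4 lists of 54 genes, drawn up by their role in the pathway but with earlier results of these data known. Of 39 tested genes, 4 were higher in the LSK-derived libraries and 10 were lower by the quasi-likelihood test of edgeR (adjusted p below 0.05), and 25 did not pass. Among the 10 lower genes, Tgfbr3 and Sdc2 passed the filter on low counts only through the GMP-derived libraries, so nothing is read from their calls. Among all tested genes 11.8% were higher and 13.9% lower. The median log2 fold change of the 39 was -0.23, beside 0.01 over all tested genes. The higher genes were Xylt1, Impad1, Extl3 and Agrn, and the count of higher genes was 4 or 5 in every alternative analysis. The count of lower genes was 4 without LSK 44, 5 without LSK 46 and 15 with DESeq2.

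Genes that start the chain differed in both directions. Xylt1, which adds the first sugar of the linkage region to the core protein, was at 14.2, 10.4 and 13.7 CPM in LSK-derived and 2.58, 4.75 and 3.40 CPM in the GMP-derived ones (log2 fold change 1.83 ± 0.25, edgeR adjusted p = 0.00377). Its relative Xylt2 did not pass, at 22.3 ± 3.70 against 16.0 ± 3.38 CPM. Of the enzymes that extend the linkage region, B3galt6 did not pass (19.5 ± 0.634 against 17.9 ± 1.37 CPM). B4galt7, which adds the first galactose, was lower in LSK-derived libraries, at 23.4 ± 1.70 against 39.8 ± 0.871 CPM (log2 fold change -0.77 ± 0.08, edgeR adjusted p = 0.00173). B3gat3, which completes the linkage region with glucuronic acid, was at 35.1 ± 2.15 against 44.6 ± 4.18 CPM and passed narrowly (edgeR adjusted p = 0.0386). Fam20b, a kinase for the first sugar, did not pass (77.7 ± 4.45 against 91.8 ± 5.87 CPM), while Pxylp1, the phosphatase for the same site, listed in the table as Acpl2, was lower (46.3 ± 5.06 against 67.5 ± 13.6 CPM, edgeR adjusted p = 0.0426). B3gat3 and Acpl2 lost their calls without each of LSK 44, LSK 45, LSK 46, GMP 11 and GMP 19, with edgeR adjusted p up to 0.131 and 0.138.

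Supply of activated sugar and sulfate was represented in the same list. Ugp2, which makes UDP-glucose, was at 90.4, 98.0 and 75.2 CPM in LSK-derived and 198, 190 and 184 CPM in the GMP-derived ones (log2 fold change -1.12 ± 0.10, edgeR adjusted p = 0.00108). Ugdh, which oxidises UDP-glucose to UDP-glucuronic acid, did not pass and ranged from 57.0 to 122 CPM among GMP-derived libraries. Papss1 and Papss2 each encode an enzyme that makes the sulfate donor PAPS. Papss1 did not pass, at 38.5 ± 5.21 against 35.2 ± 1.88 CPM, groups that overlapped (log2 fold change 0.13 ± 0.11, edgeR adjusted p = 0.432). Papss2 was at 16.5, 28.6 and 17.1 CPM in LSK-derived and 145, 52.8 and 78.8 CPM in the GMP-derived ones (log2 fold change -2.15 ± 0.42, edgeR adjusted p = 0.0144). It was highest in GMP 5, the library with 88.5 CPM of Cpa3 and 185 CPM of Hdc, both among the 10 mast cell and basophil markers. Other markers of that list were higher in the LSK-derived group or overlapped between groups. Mcpt8 was at 29.4 to 31.6 CPM in LSK-derived libraries and 14.6, 13.9 and 10.9 CPM in libraries GMP 5, 11 and 19. Gata2 was at 60.1 to 108 CPM in LSK-derived libraries and 45.6, 13.8 and 12.0 CPM in libraries GMP 5, 11 and 19. For Ms4a2 these levels were 3.81 to 5.12 CPM and 4.22, 3.56 and 3.55 CPM. Within the GMP-derived group, Mcpt8, Gata2 and Ms4a2 were also highest in GMP 5. Tpsb2, Cma1 and Fcer1a had 0 counts in GMP 5, as in the rest of its group. The part of these markers in the Papss2 difference was not tested. Without GMP 5, Papss2 was still lower (log2 fold change -1.67, edgeR adjusted p = 0.0157). Its call was lost without LSK 44 (edgeR adjusted p = 0.0627) and without LSK 46 (0.0653), and with no filter on low counts (0.0525). Impad1, a Golgi phosphatase that clears the by-product of sulfation, was higher in LSK-derived libraries (209 ± 14.0 against 152 ± 3.74 CPM, edgeR adjusted p = 0.0055). In this list of 15 genes, all tested, 2 were higher and 5 lower, and the count of lower genes was 2 without LSK 44 or LSK 46 and 3 without LSK 45, GMP 11 or GMP 19. The share called in either direction was 46.7%, beside 25.7% of all tested genes.

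Of the other chain enzymes, 5 of 15 were tested. Extl3, which adds the first glucosamine that commits a chain to heparan sulfate, was at 12.5, 9.69 and 15.3 CPM in LSK-derived and 4.26, 3.35 and 4.60 CPM in the GMP-derived ones (log2 fold change 1.62 ± 0.22, edgeR adjusted p = 0.00349). Extl1, an exostosin-like gene, was lower (4.89 ± 1.20 against 10.5 ± 2.60 CPM, edgeR adjusted p = 0.0243), a call lost without LSK 44 (0.0749), LSK 45 (0.0513), GMP 5 (0.0536) or GMP 19 (0.0650). Extl2 did not pass, at 23.1 ± 1.61 against 25.3 ± 0.0590 CPM. Among enzymes that add the rare sulfate of antithrombin-binding or virus-binding sites, Hs3st3b1 was at 6.72 ± 0.891 against 3.57 ± 1.16 CPM and did not pass (edgeR adjusted p = 0.0526), but passed with DESeq2 (0.0232), limma voom (0.0449) and upper-quartile scaling in edgeR (0.0452). Hs3st1 had at most 1 count in any library, and Hs3st6 was below 1 CPM in each group's mean.

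Core proteins carry the chains. Of 10 tested core protein genes, 1 was higher, 3 were lower and 6 did not pass (40.0% called, beside 25.7% of all tested genes). Srgn, which encodes serglycin, the main granule proteoglycan of blood cells, was at 711, 736 and 630 CPM in LSK-derived and 1049, 853 and 859 CPM in the GMP-derived ones (log2 fold change -0.41 ± 0.10, edgeR adjusted p = 0.0296). Agrn, which encodes the secreted proteoglycan agrin, was higher in LSK-derived libraries (14.8 ± 0.660 against 6.63 ± 1.62 CPM, edgeR adjusted p = 0.00704). Tgfbr3, which encodes betaglycan, a TGF-beta co-receptor, was at 0.605, 0.863 and 0.0417 CPM in LSK-derived and 12.3, 5.43 and 14.2 CPM in the GMP-derived ones (log2 fold change -4.40 ± 0.78, edgeR adjusted p = 0.0105). Sdc2, a syndecan gene at low level, was at 0.214 ± 0.123 against 0.901 ± 0.197 CPM (edgeR adjusted p = 0.0165), on 2, 9 and 4 counts in libraries LSK 44, 45 and 46. Tgfbr3 and Sdc2 passed the filter on low counts only through the GMP-derived libraries, which favours genes that are higher there. They are counted among the 3 lower genes, but nothing is read from their calls. The other surface proteoglycans did not pass and varied between libraries: Sdc1 ranged from 1.76 to 17.6 CPM and Sdc4 from 1.19 to 5.07 CPM among GMP-derived libraries, and Gpc1 from 10.7 to 38.9 CPM among LSK-derived ones. Srgn lost its call without LSK 44 (edgeR adjusted p = 0.0848) or LSK 46 (0.109), Sdc2 without LSK 44 (0.0615), LSK 46 (0.0725) or GMP 11 (0.0535), and Gpc1 passed without LSK 45 (0.0395).

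Lysosomal enzymes that take the chain apart, together with Ctsl, the protease that activates heparanase, gave 1 lower gene among 9 tested. This was 11.1%, beside 25.7% of all tested genes called in either direction. Hgsnat, the acetyltransferase of this pathway, was at 49.3 ± 4.75 against 69.6 ± 4.52 CPM (log2 fold change -0.50 ± 0.09, edgeR adjusted p = 0.0114). Gusb, the beta-glucuronidase gene, was at 599 ± 104 against 686 ± 53.7 CPM and Ctsl at 69.7 ± 14.9 against 62.6 ± 4.91 CPM, and neither passed. Without LSK 45, the library with the highest Hpse and monocyte sum, 6 genes of the list were lower, among them Gusb (edgeR adjusted p = 0.0466), and DESeq2 on all libraries called 5. Without GMP 5 the edgeR count was 3.

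Chondroitin and dermatan sulfate chains grow on the same linkage region, and their enzymes were set beside those of heparan sulfate. Of 12 tested genes, 3 were lower in LSK-derived libraries and 9 did not pass. The share called was 25.0%, near the 25.7% of all tested genes. Dse, an epimerase that makes dermatan sulfate, was at 3.21, 3.26 and 2.71 CPM in LSK-derived and 12.7, 20.6 and 15.3 CPM in the GMP-derived ones (log2 fold change -2.41 ± 0.22, edgeR adjusted p = 0.000957). The sulfotransferase genes Chst11 (21.3 ± 5.69 against 78.2 ± 29.9 CPM, edgeR adjusted p = 0.0112) and Chst14 (12.5 ± 3.53 against 25.0 ± 1.76 CPM, edgeR adjusted p = 0.0159) were also lower, Chst14 not without LSK 44 (0.0516). Chst14 acts on dermatan sulfate, as Dse does, and Dse is to this chain what Glce is to heparan sulfate. Dsel, a relative of Dse, did not pass (2.47 ± 0.538 against 4.41 ± 1.40 CPM, edgeR adjusted p = 0.0802), and its groups overlapped. Csgalnact2 and Chst12 did not pass, at 149 ± 7.60 against 195 ± 58.0 and 107 ± 4.45 against 107 ± 21.0 CPM. The difference between the chondroitin list and the heparan sulfate lists was not tested.

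**Figure D4:**
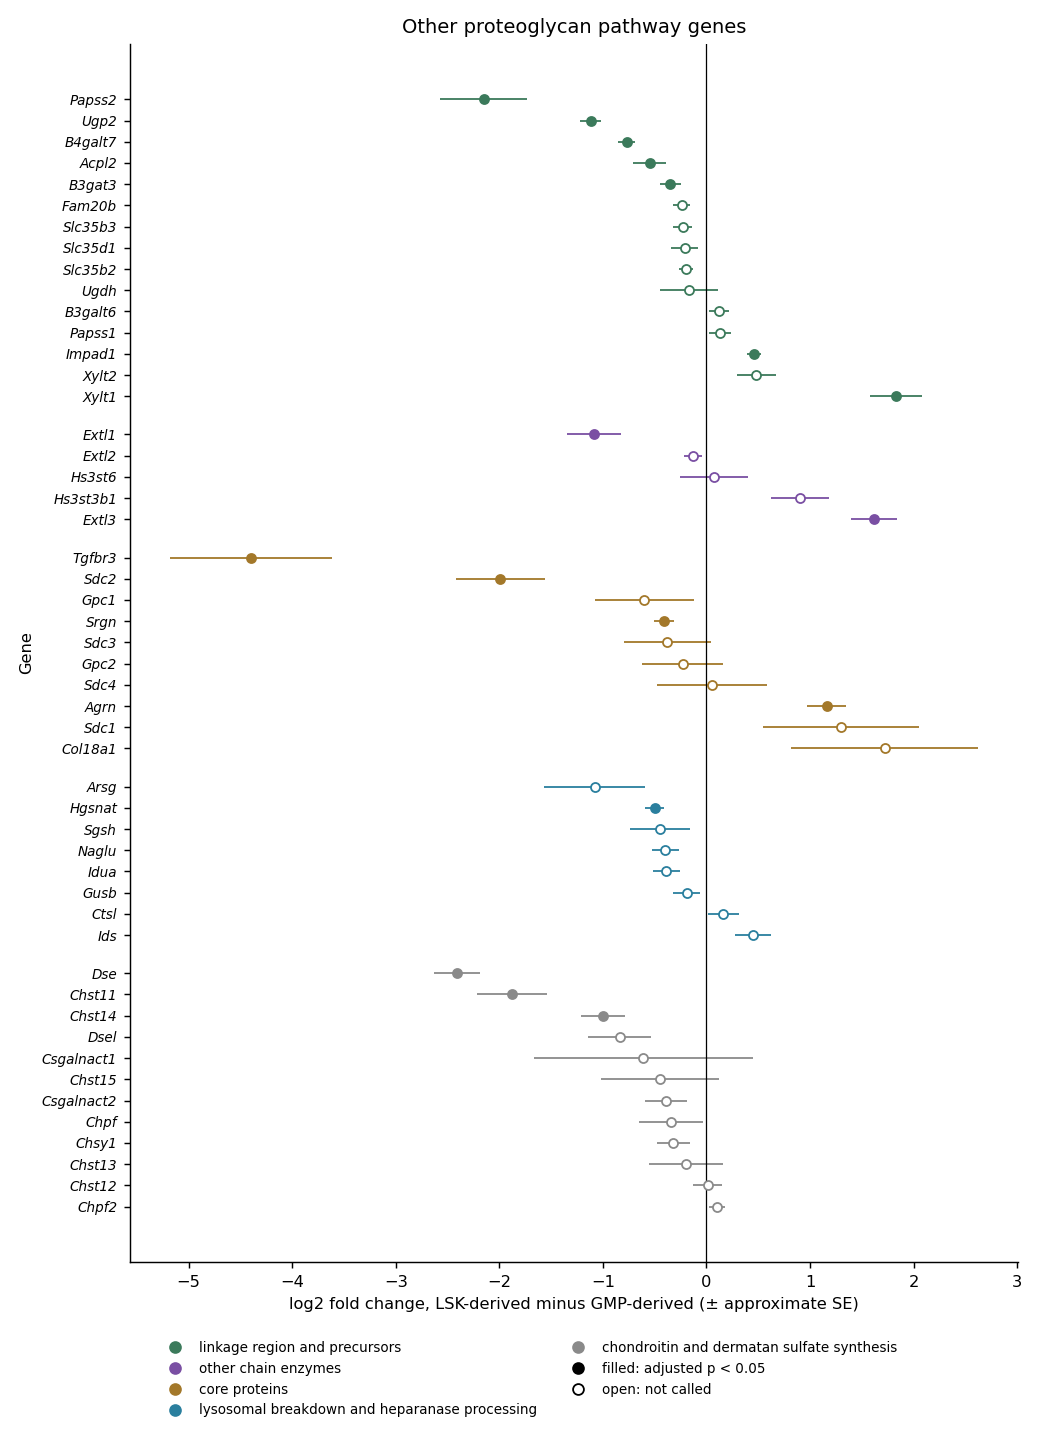
Log2 fold change (LSK-derived minus GMP-derived, horizontal axis) with approximate SE of the tested genes of the 5 lists reported here, coloured by list, filled where the edgeR adjusted p was below 0.05. Xylt1 and Extl3 lie to the right, Tgfbr3, Dse and Papss2 to the left, and most lysosomal and chondroitin genes lie left of 0 without passing.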

How the data were processed

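The deposited file holds the authors' raw counts, 1 row per gene symbol and 1 column per library, without normalization. The submitters' processing notes name the tools STAR 2.4, HTSeq 0.6.1 and DESeq2 and the build mm9, without saying what each did. Which annotation and strand setting were used is not given in the sources used here.

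The groups came from the sample titles. The 10 genes and all lists were chosen with earlier results of these data known. The test was that of edgeR 4.0.16 under R 4.3.3 (filterByExpr, TMM, robust glmQLFit, glmQLFTest, no covariate), with Benjamini-Hochberg adjustment over 13406 genes and a threshold of 0.05. The approximate SE is the size of the log2 fold change over the square root of its F statistic, and is not given for Hpse2. CPM used the TMM-scaled total over tested genes. Exon lengths were unions over GENCODE M21 basic transcripts (GRCm38), since the counting annotation is not known. Older symbols were matched through RefSeq (Pxylp1 as Acpl2).

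Besides the 10, up to 4 called and 2 uncalled genes per list were named, by p and by level, and Srgn, Sdc1, Sdc4, Ctsl, Xylt1, Xylt2, Extl3 and Hs3st1 by choice. Not every tested gene of the lists is given with its values, and 1 is not reported here in text or figure but is counted among the tested genes. Others complete small counts or were chosen after their values were seen. Alternatives were RLE and upper-quartile scaling, no filter, DESeq2 1.42.0, limma 3.58.1 voom, and leaving out each library. The scripts were tested on simulated counts. Fits without a library leave 2 in its group, whose spread is pooled with the other group's.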

Additional observations from a re-analysis of the deposited data

How the results depend on the processing

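The 11 alternatives were run on the 10 genes, on the counts of called genes and on each tested pathway gene. Without a library, the count of all genes called higher ran from 770 to 1523 and lower from 973 to 1944, and of the 39 other heparan sulfate pathway genes 4 were called higher in each such fit and 4 to 13 lower. The fitted log2 fold change of Hpse2 was -10.02, ran from -12.10 to -9.51 without a library, and was -10.29 with DESeq2 and -9.26 with limma voom. With 1 count in the LSK-derived group this value depends on the prior count. Sulf2 ran from -1.08 to -0.52 without a library. The other 8 genes moved by less than the spread between libraries in all 11, although Hpse, at 0.44, was -0.07 without LSK 45. Of the 14 called heparan sulfate pathway genes, 8 were called in every alternative, and of 25 not called, 9 were called in at least 1. The 8 include Tgfbr3, which passed the filter on low counts only through the GMP-derived libraries. No paired analysis was possible because the groups share no library numbers. Depth limits Hpse2 in the LSK-derived group, Sulf2 and Sdc2.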

Other observations

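The genes most like the heparanases over the 6 libraries were sought among 9319 genes that reached a mean of 5 CPM in either group. Unnamed gene models were left out of these. Likeness was measured by Pearson correlation of log2(CPM + 0.5). The value is a description of 6 libraries that form 2 groups, so any gene with a steady gap between the groups resembles Hpse2. For Hpse2 the closest were Cass4 (r = 0.9999), an adaptor protein gene at 5.29 to 5.46 CPM in LSK-derived and 11.6 to 12.6 CPM in GMP-derived libraries, Tlcd2 (0.9988), at 0.250 to 0.363 against 11.3 to 18.4 CPM, and Dock3 (0.9983), at 0.791 to 1.03 against 17.3 to 21.0 CPM. Tlcd2 and Dock3 were low in the LSK-derived libraries without being absent. For Hpse the closest were Slco4a1 (0.9931), a transporter gene at 43.4, 77.5 and 38.6 CPM in libraries LSK 44, 45 and 46 and 20.7, 49.5 and 55.6 CPM in libraries GMP 5, 11 and 19, Smurf1 (0.9888), a ubiquitin ligase gene at 16.0 to 20.4 CPM, and Klhl6 (0.9880), at 33.9 to 57.7 CPM. Slco4a1, Smurf1 and Klhl6 were highest in LSK 45 and lowest in GMP 5, as Hpse was.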
